A study of Rattus norvegicus with 49 samples.

Results

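Severe and mild food restriction were set against each other in rat liver at day 4. Group 5 received 60% less powdered feed and group 3 received 15% less, so that both groups of the comparison were short of food and both were fasted overnight before the liver was taken. All rats were male Sprague-Dawley rats of approximately 8 to 10 weeks, a common outbred laboratory strain, and the labels name no genetic change. The 10 arrays of these 2 groups, 5 rats each, were chosen by the group and the time point in their labels from 49 arrays in all. The other groups were fed ad libitum without a fast (group 1), ad libitum with an overnight fast (group 2) or with 30% less food and a fast (group 4), and every group was also sampled at day 14. Each array measured total RNA of homogenized liver from 1 rat, so fewer cells of a type and less RNA per cell cannot be told apart. The rats were housed in pairs or groups according to the study's methods. The labels name no cage, so the p-values treat the rats as independent. They could be too small if rats that shared a cage were alike, which was not tested. The amount each rat ate and the hour at which it was sampled are not given in the sources used here.

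The liver takes up glucose and stores it as glycogen and fat when food is plentiful, and releases glucose and ketone bodies when it is not. Fat is made from acetyl-CoA in the cytosol by enzymes that the factors SREBP-1c and ChREBP induce. Fat is burned in mitochondria and peroxisomes by enzymes that the nuclear receptor PPAR-alpha induces when fatty acids arrive from adipose tissue. A circadian clock runs beneath both programmes: BMAL1 with CLOCK or NPAS2 drives the Per and Cry genes, whose proteins repress it, and REV-ERB and ROR receptors set the level of Bmal1. In liver, meal times are a strong setter of this clock.

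Of 14217 genes tested, 118 were called at an adjusted p under 0.1, which is 0.83% of all genes. 75 were higher in group 5 (0.528%) and 43 were lower (0.302%). The differences were mostly small: the median was 0.44 on the log2 scale for the genes called higher and -0.43 for those called lower, and 6 and 4 of them, respectively, reached a log2 difference of 1. At the stricter adjusted p of 0.05, 13 genes were higher and 11 were lower. The 5 rats of one group lay wholly above the 5 of the other in 67 of the 75 genes and wholly below them in 39 of the 43, where this was so for 1.92% and 0.788% of all genes, 2.71% together. The genes called higher included clock components and clock outputs, regulators of fat synthesis, and enzymes of the citrate cycle. The genes called lower included enzymes of fatty acid oxidation and other genes known as PPAR-alpha targets, the hormone gene Fgf21, and the monocarboxylate carrier Slc16a1.

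The calls depended on which rats were in the fit. When each of the 10 rats was left out in turn, 12 genes were called in all 10 fits, namely Cndp2, Coq10b, Idh2, Nherf1, Pdk2, Slc37a4, Thrsp and Tst among the higher and Aig1, Cyp4a1, Eci1 and Fabp2 among the lower. At least 5 of the 10 fits kept 17 of the genes called higher and 13 of those called lower. The counts with 1 rat left out ran from 9 to 137 higher and from 7 to 67 lower, the fewest without group 3 replicate 2 and the most without group 5 replicate 1. Of the clock genes called, Usp2 and Per2 were kept in 3 of the 10 fits and Noct and Cry1 in 2. 6 calls were kept in 0 of the 10 fits, those of Echdc1, Gstt1, Shpk and Prps1l3 among the higher and of Acad11 and Rcn2 among the lower. The lognormal-normal model of the study's methods (LNN-MV), written anew here and applied to the same arrays, called 74 of the 75 and 41 of the 43. The 3 it did not call were Cyp2c22, Cyp4a3 and Cyp8b1. It used the same 10 arrays and took its variance per gene from limma, so its calls are no independent support for those of the main fit.

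One feature of these arrays touches many of the results below. The first principal component of the 10 arrays, which held 28.2% of their variance, spread the rats within each group as well as between the groups. In ascending order of the animal numbers in the labels, its scores were -16.3, -14.9, -12.4, 0.389 and 1.91 in group 3 and -5.98, -1.75, 14.4, 15.9 and 18.8 in group 5, and so rose with the animal number in both. What the animal numbers stand for is not given in the sources used here. The position of a rat in this order, from 1 to 5, was then added to the fit as a covariate, an alternative chosen after the data had been seen. Because both groups hold the same 5 positions, the differences stayed as they were and only their errors changed. The animal numbers themselves ran from 731 to 735 in group 3 and from 741 to 745 in group 5. A trend along the numbers from group to group therefore cannot be told apart from the diet by such a fit. With the covariate 219 genes were called higher (1.54%) and 147 lower (1.03%), and these included all 75 and 43 called without it. With each position as a block of 2 rats instead, also chosen after the data had been seen, 94 were called higher (0.661%) and 89 lower (0.626%). These included 49 of the 75 and 30 of the 43, and left out, among the genes named here, Cry1, Cyp4a3, Cyp8b1, Etfdh, Hadha, Map2k6, Mdh2 and Obp1f. The position itself was called in 189 genes, 62 rising and 127 falling along the order. In the 39 arrays of the other groups and days, none of which entered these fits, the slope along the order had the same sign in 164 of these 189 genes (86.8%), as it had in 63.8% of all genes. 28 of the 189 (14.8%) were called there too, against 5.28% of all genes, and 0 were called in the opposite direction. The part of the animal order in the differences between the groups was not tested, since neither fit can change those differences. The adjusted p with the covariate is given below beside each named gene whose call the covariate changed. The order was noticed in these same 10 arrays, so a smaller adjusted p with the covariate is no independent support for a call. In the sentences below, values of single rats are log2 intensities in ascending animal number.

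**Figure D1:**
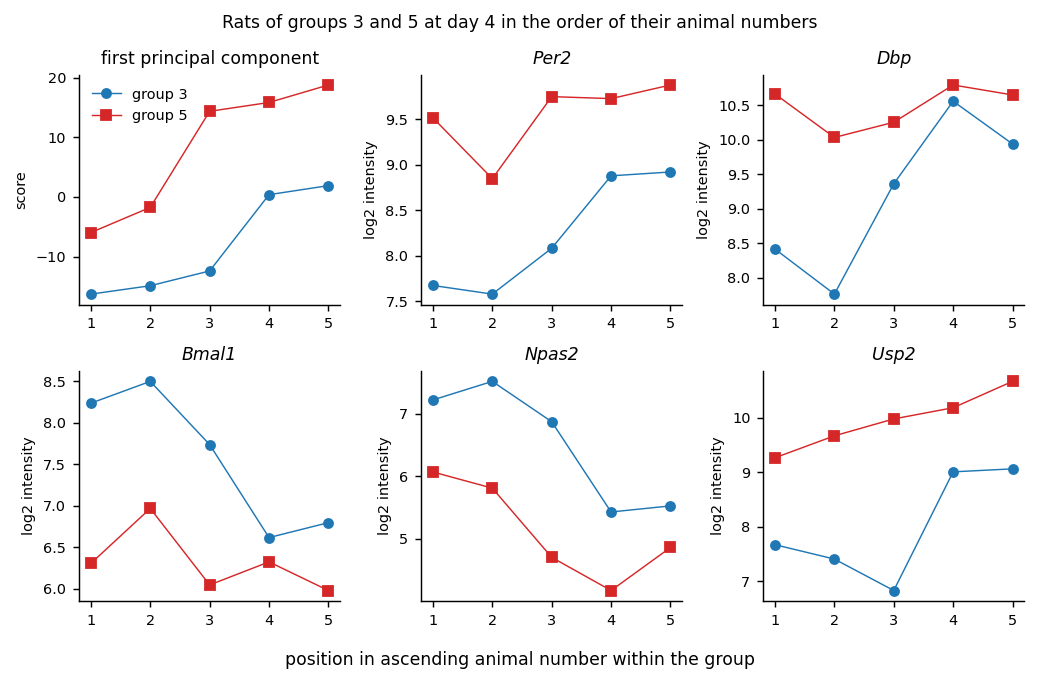
Score on the first principal component (arbitrary units) and log2 intensity of 5 clock genes (vertical axes) against the position of each rat in the ascending order of animal numbers of its group (horizontal axis), for group 3 (blue circles) and group 5 (red squares) at day 4. Scores rise along the order in both groups, from -16.3 to 1.91 in group 3 and from -5.98 to 18.8 in group 5, and the clock genes of group 3 move most between positions 2 and 4.

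The hepatocyte markers on the list were bright in both groups, the labelled tissue being liver: their summed level ran from 17.44 to 17.51 on the log2 scale in group 5 and from 17.43 to 17.48 in group 3. Markers of other cells had overlapping ranges. The summed level of 10 Kupffer cell and macrophage markers was 13.37 to 13.84 in group 5 and 13.26 to 13.87 in group 3, that of 13 stellate cell and fibroblast markers 11.54 to 12.39 and 11.68 to 12.67, and that of 9 endothelial markers 12.95 to 13.06 and 12.92 to 13.06. The 6 bile duct markers ran from 9.23 to 9.49 and from 9.19 to 9.58, the 15 T and NK cell markers from 10.67 to 11.07 and from 10.47 to 11.05, and the 5 neutrophil markers from 7.34 to 7.62 and from 7.31 to 7.82. The 4 B cell markers were at 10.87 to 11.37 in group 5 and 11.05 to 12.15 in group 3, and the 6 erythroid markers at 13.04 to 13.77 and 13.25 to 13.9. All 4 B cell and all 6 erythroid markers had differences below 0 (medians -0.27 and -0.13), as had 6680 of all 14217 genes. In contrast, 9 of 10 Kupffer cell and 8 of 9 endothelial markers were above 0. In these 4 lists 0 markers were called, and with the position covariate 1 B cell marker was called lower. Of the defining markers, Lum, Cldn4, S100a8, Csf3r and Epb42 were dim, below the 20th percentile of all probe sets. The part of other cells in the results below was not tested.

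The largest rises among the called genes were those of clock-controlled genes. The ubiquitin protease Usp2, a clock-controlled gene, had the largest rise of all genes called. Its levels were 9.27, 9.67, 9.98, 10.18 and 10.67 in group 5 and 7.67, 7.41, 6.83, 9.01 and 9.06 in group 3, a log2 difference of 1.96 ± 0.42 (SE, n = 5 and 5) or 3.88-fold (limma, adjusted p = 0.0947, and 0.016 with the position covariate). The lowest rat of group 5 stood just above the highest of group 3. Noct (nocturnin), a strongly rhythmic mRNA in liver, was at 9.26, 9.46, 8.84, 8.61 and 9.95 in group 5 and 7.71, 7.55, 6.52, 8.11 and 8.42 in group 3, which again did not overlap (difference 1.56 ± 0.33, adjusted p = 0.0946, 0.0558 with the covariate). The group means at day 4 for Usp2 were 7.14 in the fasted, fully fed group 2 and 9.34 in group 4, and for Noct 6.39 and 8.57.

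Among the repressors of the clock, Per2 and Cry1 were called. Per2 was at 9.52, 8.85, 9.75, 9.73 and 9.88 in group 5 and 7.67, 7.58, 8.08, 8.88 and 8.92 in group 3, a difference of 1.32 ± 0.29 (adjusted p = 0.0964, 0.0135 with the covariate). The lowest rat of group 5 lay just below the 2 group 3 rats with the highest animal numbers, and the other 4 rats of group 5 lay above all of group 3. Another Per2 probe set, with a mean of 8.22 beside 8.89 for the one used, differed by only 0.29. Cry1 was at 7.18, 7.14, 7.63, 8.04 and 8.34 and 6.30, 7.07, 6.63, 6.55 and 6.39, with no overlap (difference 1.08 ± 0.23, adjusted p = 0.0946). It was not called with the position as a block. Its means in groups 2 and 4 were 7.13 and 7.26. Per1 and Per3 differed by 0.56 (adjusted p = 0.245) and 1.02 (0.186) and Cry2 by 0.42 (0.249), and none of the 3 was called. With the covariate Per3 was called at an adjusted p of 0.0406.

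The activators had values of the other sign, but their rats overlapped. Bmal1 was at 6.30, 6.97, 6.04, 6.32 and 5.98 in group 5 and 8.23, 8.50, 7.73, 6.61 and 6.79 in group 3 (difference -1.25 ± 0.35, adjusted p = 0.177). It ran from 8.02 to 9.25 in group 2 and from 5.93 to 7.10 in group 4. Npas2, which can stand in for CLOCK as the partner of BMAL1, was at 6.07, 5.81, 4.70, 4.17 and 4.86 and 7.22, 7.52, 6.87, 5.43 and 5.52 (difference -1.39 ± 0.47, adjusted p = 0.252). In both genes the first 3 group 3 rats of the order were higher than every rat of group 5, while the last 2 lay within the range of group 5. With the covariate Bmal1 and Npas2 had adjusted p-values of 0.0454 and 0.0365. The covariate fits 1 straight slope to both groups, whereas Bmal1 in group 3 stepped from 7.73 to 6.61 between positions 3 and 4. Clock itself differed by -0.52 (adjusted p = 0.262, 0.069 with the covariate).

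The receptors Nr1d1 and Nr1d2 (REV-ERB alpha and beta) differed by 0.17 (adjusted p = 0.818) and 0.49 (0.229), and Rora by -0.40 (0.553). The repressors Bhlhe40 and Bhlhe41 (DEC1 and DEC2) differed by 1.07 (0.103, or 0.0741 with the covariate) and 0.79 (0.537), and the kinases Csnk1d and Csnk1e by 0.27 (0.233) and -0.0033 (0.991). In all, 2 of 15 measured members of the core loop were called higher and 0 lower, with a median difference of 0.42 against 0.0084 over all genes. With the covariate 4 were called higher and 3 lower.

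Of 11 clock output factors and rhythmic genes, 2 were called higher, Usp2 and Noct, and 0 lower, with a median difference of 0.79. The PAR bZIP factors bind D-boxes and carry the rhythm to metabolic genes. Their member Dbp was at 10.66, 10.03, 10.25, 10.79 and 10.65 in group 5 and 8.41, 7.76, 9.36, 10.56 and 9.94 in group 3 (difference 1.27 ± 0.44, adjusted p = 0.257), with group 3 rats from far below group 5 to within it. Dbp ran from 6.74 to 9.04 in group 2 and from 9.93 to 11.14 in group 4. Hlf did not overlap between the groups (difference 0.53, adjusted p = 0.102, or 0.0718 with the covariate), and Tef differed by 0.61 (0.214, or 0.0392 with the covariate). Nfil3, the repressor at the same sites, differed by -0.37 (0.584). The mitotic kinase gene Wee1 differed by 0.83 (0.178, or 0.0419 with the covariate), the NAD-producing enzyme Nampt by 0.65 (0.443), the glucocorticoid-induced Tsc22d3 by 0.79 (0.293), and the phosphatidate phosphatase Lpin1 by 0.93 (0.294). Elovl3 was dim in both groups, with means of 3.70 and 3.83. With the covariate 5 of the 11 were called higher.

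**Figure D2:**
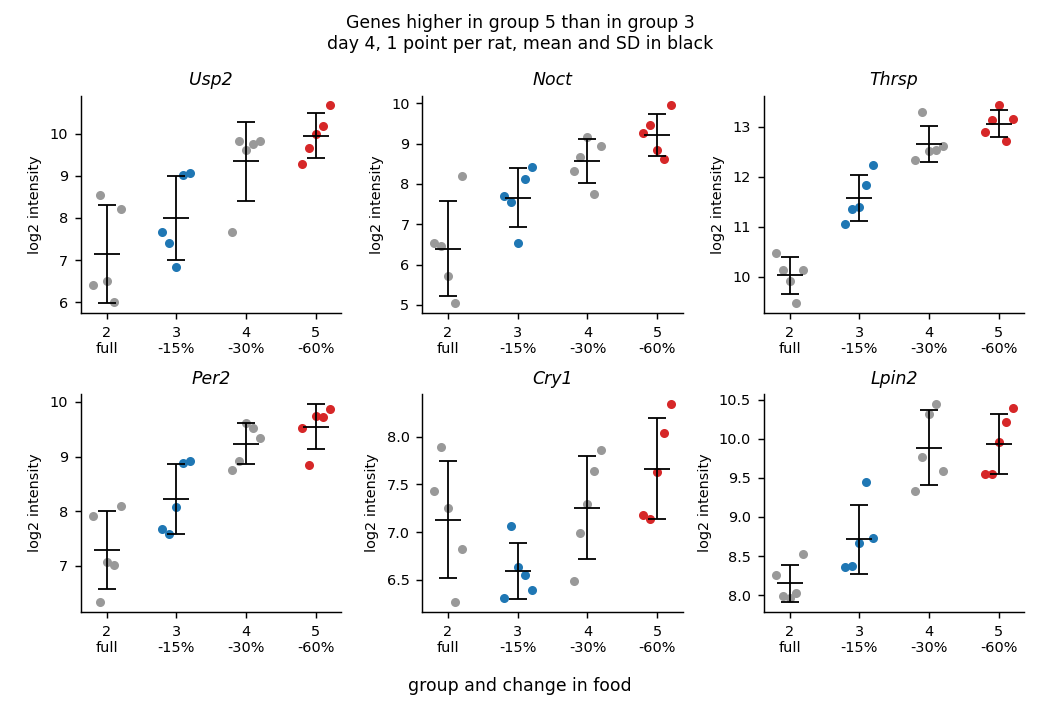
Log2 intensity (vertical axes) of 6 genes called higher in group 5 than in group 3 at day 4, with 1 point per rat, the mean and the SD, for groups 2 (full food), 3 (15% less), 4 (30% less) and 5 (60% less), all fasted overnight. Groups 3 and 5 are in blue and red. Group 5 rats lie above group 3 rats without overlap in Usp2, Noct, Thrsp, Cry1 and Lpin2, and in Per2 the lowest rat of group 5 lies below 2 rats of group 3.

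The promoters were searched for the letters of 6 elements in the 250 bases before the annotated start, on both strands, in the 11733 of 14217 genes with an entry in the RefSeq table (rat build GRCr8). The D-box, spelled TTATGTAA or TTACGTAA, was found in 0.605% of all promoters, in 2 of 60 promoters of genes called higher (3.33%) and in 0 of 34 of genes called lower. The 2 genes were Per2 and Coq10b, the latter a ubiquinone-binding protein of the mitochondria. Their promoters are shown, minus strand for Per2 (chr9:99496994-99497243) and plus strand for Coq10b (chr9:64047918-64048167), 5′ to 3′ along the gene and ending next to the start, with the D-box letters in capitals.
Per2: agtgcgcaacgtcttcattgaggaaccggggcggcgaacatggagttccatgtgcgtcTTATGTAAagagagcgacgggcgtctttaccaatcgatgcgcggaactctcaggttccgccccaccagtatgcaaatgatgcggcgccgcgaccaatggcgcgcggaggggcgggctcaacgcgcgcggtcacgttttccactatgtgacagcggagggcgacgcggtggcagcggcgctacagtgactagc
Coq10b: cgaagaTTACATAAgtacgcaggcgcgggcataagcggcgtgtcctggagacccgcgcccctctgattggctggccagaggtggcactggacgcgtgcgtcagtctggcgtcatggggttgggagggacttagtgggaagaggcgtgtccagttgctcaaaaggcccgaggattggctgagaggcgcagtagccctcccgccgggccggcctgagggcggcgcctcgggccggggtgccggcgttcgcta
The match lay at position -192 from the start in Per2 and at -244 in Coq10b, where it reads on the other strand. The E-box CACGTG, the element of BMAL1 and its partners, was in 5% of promoters of genes called higher and 17.6% (6 of 34) of those called lower, against 7.82% of all. The heat shock element GAANNTTC was in 3.33% and 5.88% of these promoters and in 4.97% of all. The ROR and REV-ERB element TAGGTCA was in 0 promoters of either set and in 1.65% of all. A match is a description of the letters and not a site.

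Coq10b had one of the most even differences between the groups. Its levels were 9.62, 9.37, 9.63, 9.84 and 9.87 in group 5 and 8.72, 8.83, 8.77, 8.74 and 8.71 in group 3. Every rat of group 5 stood clear of every rat of group 3, and the difference of 0.91 ± 0.09 had the lowest adjusted p of all genes, 0.00548. Its means in groups 2 and 4 were 8.27 and 9.35.

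Of 13 genes of fatty acid synthesis, 2 were called higher in group 5, Thrsp and Acaca, and 0 lower. 12 of the 13 had differences above 0, as had 7531 of all 14217 genes, and the median was 0.58. Thrsp (Spot 14), a small protein that promotes lipogenesis and follows carbohydrate and thyroid hormone, was at 12.90, 13.13, 13.43, 12.72 and 13.15 in group 5 and 11.06, 11.35, 11.40, 11.85 and 12.24 in group 3. The difference was 1.49 ± 0.20, or 2.8-fold (adjusted p = 0.0215), and the groups lay well apart. The means in groups 2 and 4 were 10.03 and 12.66. Acaca, the acetyl-CoA carboxylase that makes malonyl-CoA, was at 9.30, 9.29, 9.93, 9.23 and 9.44 in group 5 and 8.72, 8.71, 8.86, 8.70 and 8.80 in group 3 (difference 0.68 ± 0.12, adjusted p = 0.0544), again without overlap.

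The other lipogenic genes spread more between rats. Fasn, the fatty acid synthase, was at 8.53, 8.74, 10.19, 8.39 and 9.04 and 7.84, 8.27, 8.18, 7.60 and 8.07, without overlap but with 1 rat of group 5, the one with animal number 743, far above the others (difference 0.99 ± 0.29, adjusted p = 0.199). The same rat was the highest of group 5 for the citrate lyase Acly (0.62, adjusted p = 0.313). Srebf1, which encodes SREBP-1, differed by 0.70 ± 0.29 (adjusted p = 0.355) with overlapping rats. Pklr, the liver pyruvate kinase and a hub gene of the study's network, differed by 0.67 ± 0.16 (adjusted p = 0.136, 0.0507 with the covariate). Me1, the malic enzyme that supplies NADPH, was the 1 member below 0, at -0.19 (adjusted p = 0.687). Of the desaturases, Fads1 differed by 0.81 (adjusted p = 0.148, 0.095 with the covariate) and Scd by -1.12 (0.374), with rats that overlapped in both. With the covariate 3 of the 13 synthesis genes were called higher, and 1 of 14 genes of elongation and desaturation, where 0 were called without it.

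Of 17 cholesterol synthesis genes, 0 were called, although 16 of 17 had differences above 0, as had 7531 of all 14217 genes, and the median was 0.58. The isomerase Idi1 was at 7.73, 7.81, 10.17, 7.52 and 8.56 in group 5 and 6.75, 8.19, 7.45, 6.63 and 6.66 in group 3 (difference 1.22 ± 0.48, adjusted p = 0.313). Rat 743 of group 5 again stood far above the rest. Msmo1, Acat2 and Hsd17b7 differed by 0.91, 0.91 and 0.83 (adjusted p = 0.385, 0.198 and 0.241), and Tm7sf2 was the member below 0, at -0.62 (0.284). Among sterol sensors, Insig1, which holds the SREBP precursors back in the endoplasmic reticulum, differed by 1.08 (adjusted p = 0.18) and Insig2 by -0.58 (0.402, or 0.0902 with the covariate). With the covariate 0 of the 17 synthesis genes were called, and 1 of 13 genes of sterol sensing and transport, where 0 were called without it. The sterol element TCACCCCAC was in 0 of the promoters of called genes and in 0.366% of all.

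In glycerolipid synthesis, 1 of 14 members was called higher and 1 lower. Lpin2, a phosphatidate phosphatase that makes diacylglycerol, was at 9.55, 9.55, 9.96, 10.21 and 10.40 in group 5 and 8.36, 8.38, 8.67, 9.45 and 8.73 in group 3 (difference 1.22 ± 0.22, adjusted p = 0.0585, 0.00716 with the covariate). It ran from 7.97 to 8.52 in group 2 and from 9.33 to 10.44 in group 4. A dimmer Lpin2 probe set, with a mean of 7.05 beside 9.32, differed by only 0.25. Gpam, the mitochondrial acyltransferase that takes the first step of triglyceride synthesis, was lower with a difference of -0.66 ± 0.14 (adjusted p = 0.0946), with overlapping rats. Its means were 6.88 and 7.54. With the covariate 2 of the 14 were called lower.

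Of 19 genes of mitochondrial fatty acid oxidation, 4 were called lower in group 5 and 0 higher. 14 of the 19 had differences below 0, as had 6680 of all 14217 genes, with a median of -0.12. Eci1, an isomerase for unsaturated fatty acids, was at 12.53, 12.48, 12.47, 12.51 and 12.54 in group 5 and 13.56, 13.19, 12.86, 13.42 and 13.54 in group 3, so that group 5 was tight and low and group 3 spread above it (difference -0.81 ± 0.12, adjusted p = 0.0296). Its mean was 13.79 in group 2 and 12.80 in group 4. The 2 subunits of the trifunctional protein, Hadha and Hadhb, were lower, with differences of -0.29 ± 0.06 (adjusted p = 0.0964) and -0.37 ± 0.07 (0.0544), and the electron-transfer dehydrogenase Etfdh had one of -0.35 ± 0.08 (0.0946). These were small differences. The rats did not overlap in any of the 4, as in 39 of the 43 genes called lower. Hadha and Etfdh were not called with the position as a block. The carnitine transporter Slc22a5 differed by -0.39 (adjusted p = 0.368). Cpt1a, which admits fatty acids to the mitochondria, was at 12.97, 13.16, 12.95, 13.13 and 13.21 and 13.18, 12.82, 13.01, 13.28 and 13.06 (difference 0.01, adjusted p = 0.975), with the groups fully mixed. With the covariate 7 of the 19 were called lower.

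Outside the mitochondrial pathway, 3 of 15 other genes known as PPAR-alpha targets were called lower and 0 higher, with a median of -0.15. These were Cyp4a1, Cyp4a3 and Fgf21. Cyp4a1, an omega-hydroxylase of fatty acids, was at 11.45, 11.42, 11.56, 11.40 and 11.55 in group 5 and 12.69, 12.33, 12.02, 12.53 and 12.88 in group 3, with a narrow group 5 below all of group 3 (difference -1.01 ± 0.13, adjusted p = 0.0213). Its close relative Cyp4a3 was lower with a difference of -0.54 ± 0.12 (adjusted p = 0.0988), was not called by LNN-MV and kept its call in 2 of the 10 fits with a rat left out. Cyp4a3 was also not called with the position as a block. Since the family is alike in sequence, probe sets may share signal. Retsat, a retinol saturase, differed by -0.74 (adjusted p = 0.445) with overlap. Ech1, an isomerase of mitochondria and peroxisomes, was lower with a difference of -0.55 ± 0.11 (0.0882), and Fabp2, a fatty acid binding protein, with one of -0.77 ± 0.11 (0.0215). In peroxisomal oxidation and among thioesterases 0 of 14 and 0 of 9 members were called, and with the covariate 1 of each, lower. The largest differences there were those of the carnitine octanoyltransferase Crot, -1.03 (adjusted p = 0.195, 0.071 with the covariate), and the thioesterase Acot2, -0.89 (0.107, or 0.0801 with the covariate).

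Fgf21 encodes a hormone that the fasted liver secretes and that acts on fat and the brain. Its levels were 6.69, 6.89, 7.02, 6.92 and 6.54 in group 5 and 8.41, 7.98, 7.58, 8.01 and 7.41 in group 3. All rats of group 5 were below all of group 3, and the difference was -1.07 ± 0.17, or 2.09-fold lower (adjusted p = 0.0432). The means were 8.09 in group 2 and 7.14 in group 4. It is also a target of the integrated stress response, whose factor ATF4 answers amino acid shortage. Of 20 such targets 2 were called lower, Fgf21 and the transcription factor gene Atf5 (-0.81 ± 0.18, adjusted p = 0.0988), and 0 higher, with a median of -0.12. The asparagine synthetase Asns differed by -0.68 (adjusted p = 0.109, 0.0643 with the covariate), and with the covariate 4 of the 20 were called lower. The ATF4 element, spelled TGATGCAA or TGATGAAA, was in 3 of 34 promoters of genes called lower (8.82%: Fgf21, Gpam and Adtrp), in 0 of 60 of those called higher and in 1.08% of all. The Fgf21 promoter is shown for this (minus strand, chr1:105221377-105221626, GRCr8), with the ATF4 element, at -143 on the other strand, and an E-box, at -54, in capitals.
Fgf21: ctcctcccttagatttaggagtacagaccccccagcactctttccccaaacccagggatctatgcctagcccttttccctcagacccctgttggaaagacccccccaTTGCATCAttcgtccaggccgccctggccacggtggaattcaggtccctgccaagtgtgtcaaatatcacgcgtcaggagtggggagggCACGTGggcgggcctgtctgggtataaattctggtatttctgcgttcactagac

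The largest fall of a gene without overlap was that of Aig1, a membrane hydrolase of fatty acid esters of hydroxy fatty acids. It was at 8.20, 8.16, 8.19, 8.17 and 8.11 in group 5 and 9.44, 9.54, 8.75, 9.49 and 9.61 in group 3, where the rat with animal number 733 stood below the other 4 and still above every group 5 rat (difference -1.20 ± 0.14, adjusted p = 0.00956). Its means in groups 2 and 4 were 10.19 and 8.29. The tight-junction gene Cldn1, named after its values were seen, was lower still, with a difference of -1.50 ± 0.31 (adjusted p = 0.0883, 0.0126 with the covariate), but 1 rat of group 5 overlapped group 3. Its levels were 8.52, 9.25, 8.02, 7.53 and 7.62 and 10.03, 9.93, 9.97, 9.15 and 9.37. Slc16a1 (MCT1), which carries lactate, pyruvate and ketone bodies, was at 10.34, 10.54, 10.21, 9.95 and 9.92 in group 5 and 11.47, 11.38, 11.37, 10.84 and 10.68 in group 3, without overlap (difference -0.96 ± 0.17, adjusted p = 0.0544, 0.00255 with the covariate). Its levels ran from 11.35 to 11.81 in group 2 and from 9.87 to 11.21 in group 4. Slc16a1 was the 1 member called of 6 ketone body genes. All 6 had differences below 0, as had 6680 of all 14217 genes.

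**Figure D3:**
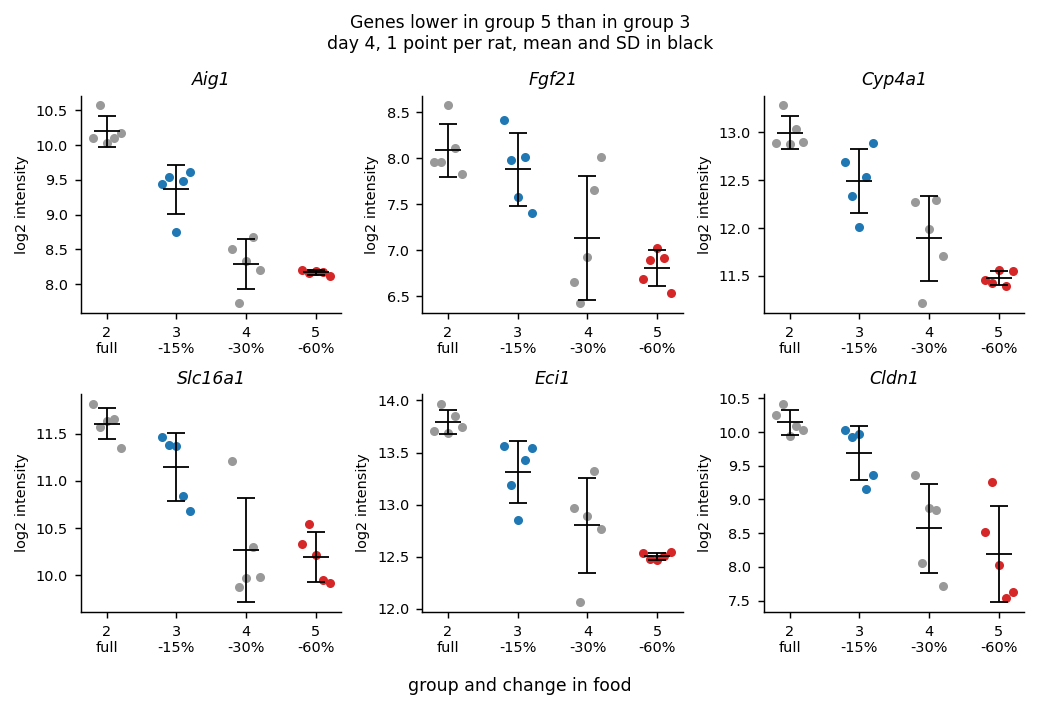
Log2 intensity (vertical axes) of 6 genes called lower in group 5 than in group 3 at day 4, with 1 point per rat, the mean and the SD, for groups 2 (full food), 3 (15% less), 4 (30% less) and 5 (60% less), all fasted overnight. Groups 3 and 5 are in blue and red. Group 5 lies below group 3 without overlap in Aig1, Fgf21, Cyp4a1, Slc16a1 and Eci1, and overlaps by 1 rat in Cldn1.

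Genes of glucose handling were called at single steps. Slc2a2 (GLUT2), the glucose carrier of the hepatocyte surface, was at 12.54, 12.42, 12.55, 12.73 and 12.67 in group 5 and 11.68, 11.47, 11.96, 12.16 and 11.87 in group 3 (difference 0.75 ± 0.12, adjusted p = 0.0395). The glucose 6-phosphate carrier Slc37a4, which feeds the last step of glucose output, was at 12.30, 12.42, 12.45, 12.34 and 12.46 and 12.06, 11.81, 11.98, 11.95 and 12.02 (difference 0.43 ± 0.06, adjusted p = 0.0274). Neither gene overlapped between the groups. Ldha, which converts pyruvate and lactate, was lower with a difference of -0.55 ± 0.11 (adjusted p = 0.0883). Of 16 glycolysis and glucose entry genes 1 was called higher (Slc2a2) and 1 lower (Ldha), and of 15 gluconeogenesis genes 2 were called higher (Slc37a4 and Mdh2) and 0 lower. Got1 and Ppargc1a, an aminotransferase and a coactivator of gluconeogenic genes, differed by 0.69 (adjusted p = 0.267) and 0.56 (0.447). With the covariate 3 of the 16 glycolysis genes were called higher and 2 lower.

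At the entry to the citrate cycle, Pdk2, a kinase that switches pyruvate dehydrogenase off, was at 11.67, 11.59, 11.65, 11.76 and 11.63 in group 5 and 11.26, 11.09, 11.23, 11.22 and 11.31 in group 3 (difference 0.44 ± 0.06, adjusted p = 0.0213), with no overlap. The starvation-induced kinase Pdk4 had a value of the opposite sign, -1.05 ± 0.29 (adjusted p = 0.172, 0.0681 with the covariate), and overlapped. Of 16 genes of the citrate cycle, 3 were called higher and 0 lower. The mitochondrial NADP-dependent isocitrate dehydrogenase Idh2 was at 10.87, 10.76, 10.68, 10.73 and 10.61 in group 5 and 10.06, 10.27, 10.13, 10.20 and 10.13 in group 3, with a wide gap for the spread of the rats (difference 0.57 ± 0.06, adjusted p = 0.00956). Idh3g and Mdh2, both of the NAD-dependent steps, were higher by 0.33 ± 0.06 (adjusted p = 0.0544) and 0.27 ± 0.06 (0.0929). Mdh2 was not called with the position as a block. Sdha, a subunit of succinate dehydrogenase, differed by 0.24 (adjusted p = 0.169, 0.093 with the covariate) and did not overlap. With the covariate 4 of the 16 were called higher.

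Amino acid enzymes were called in few places. Tat, the tyrosine aminotransferase that glucocorticoids and fasting induce, was higher by 0.45 ± 0.08 (adjusted p = 0.0544), and Afmid, of tryptophan breakdown, by 0.73 ± 0.15 (0.0898). These were 2 of 13 measured genes of that degradation list. Kynu of the same pathway differed by -0.86 (adjusted p = 0.186), and it was called lower with the covariate (0.03). Agxt, which moves amino groups from alanine to glyoxylate, was lower with a difference of -0.68 ± 0.14 (adjusted p = 0.0883), and the folate enzyme Mthfd1 was higher by 0.44 ± 0.10 (0.0946). Klf15, a factor that induces amino acid breakdown, was higher by 0.56 ± 0.12 (adjusted p = 0.0988). In branched-chain amino acid breakdown and in the urea cycle 0 of 18 and 0 of 11 members were called.

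In bile acid synthesis 1 of 14 members was called, and it was lower. Cyp8b1, which sets the share of cholic acid, fell by 0.70 ± 0.16 (adjusted p = 0.0996), from a mean of 13.40 in group 3 to 12.70 in group 5. LNN-MV and the fit with the position as a block did not call it, and it kept its call in 2 of the 10 fits with a rat left out. Cyp7a1, the rate-limiting enzyme of bile acid synthesis and a rhythmic gene, was at 11.17, 12.14, 11.64, 12.04 and 12.66 in group 5 and 9.03, 10.52, 9.74, 11.40 and 11.18 in group 3 (difference 1.56 ± 0.43, adjusted p = 0.169, 0.0314 with the covariate). Of the group 3 rats, 2 lay within the range of group 5. Nr0b2 (SHP), the repressor of these enzymes, was at 10.78, 11.03, 10.72, 11.08 and 10.89 and 9.08, 7.82, 9.76, 9.95 and 10.37, without overlap but with group 3 widely spread (difference 1.51 ± 0.38, adjusted p = 0.14, 0.061 with the covariate). With the covariate 2 of the 14 were called higher and 2 lower.

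In drug metabolism the P450 Cyp2c22 was higher by 0.45 (adjusted p = 0.0964), as 1 of 23 genes of that list, and the glutathione transferase Gstt1 by 0.47 (0.0946), as 1 of 22. LNN-MV did not call Cyp2c22, which kept its call in 1 of the 10 fits with a rat left out, and Gstt1 kept its call in 0 of them. With the covariate 4 of the 23 P450 genes were called higher. The P450 reductase Por and the receptor Nr1i3 (CAR) differed by 1.15 (adjusted p = 0.215, 0.0309 with the covariate) and 0.75 (0.136, or 0.0781 with the covariate). Of 19 genes of the growth hormone axis 0 were called. Its feedback inhibitor Socs2 was at 9.83, 9.15, 7.84, 8.94 and 9.14 in group 5 and 10.72, 10.86, 11.08, 10.44 and 9.55 in group 3 (difference -1.55 ± 0.35, adjusted p = 0.103), and it was called with the covariate (0.0466), as 1 of the 19. Bcl6 differed by 1.29 (0.324). Among interferon genes 1 of 19, Stat2, was higher by 0.55 (adjusted p = 0.0649). Of 15 glucocorticoid response genes 1, Tat, was called. Fkbp5 of that list differed by 1.03 (0.169), and with the covariate 1 of the 15 was called higher and 1 lower.

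The remaining large and non-overlapping differences fell outside these pathways. Among the rises were Echdc1, which clears ethylmalonyl-CoA (0.91, adjusted p = 0.0988, a call kept in 0 of the 10 fits with a rat left out), the kinase genes Mknk2 (0.84, 0.0432) and Map2k6 (0.79, 0.0655), Enc1 (0.74, 0.0821), the antizyme inhibitor Azin1 (0.71, 0.0821), the odorant-binding Obp1f (0.60, 0.0883) and the prostaglandin reductase Ptgr1 (0.60, 0.0646). Map2k6 and Obp1f were not called with the position as a block. Among the falls were Abhd1 (-0.70, adjusted p = 0.0432), the zinc-finger gene Zfp697 (-0.64, 0.0432), Tor3a (-0.55, 0.0883) and Chchd6 of the mitochondrial inner membrane (-0.55, 0.0432). Bcl2l11 (BIM), a promoter of apoptosis, was also higher by 0.97 (adjusted p = 0.0821), with overlapping rats. Of the genes that stayed called with any rat left out, the dipeptidase Cndp2 was higher by 0.53 (0.0213), the scaffold Nherf1 by 0.54 (0.0274) and the sulfurtransferase Tst by 0.44 (0.0327).

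The lists of large protein complexes held no called gene. Of 30 proteasome subunits 0 were called and 25 had differences below 0, with a median of -0.05. Of 16 cytosolic ribosomal proteins 0 were called and 15 had differences above 0, with a median of 0.07. Of 26 subunits of oxidative phosphorylation 0 were called and 23 were above 0, with a median of 0.05. Among all 14217 genes, 7531 differences were above 0 and 6680 below. No call was made by limma among 24 cell cycle genes or 18 acute phase and carrier proteins either, with medians of 0.0012 and -0.03. With the covariate 1 subunit of oxidative phosphorylation was called higher and 2 cell cycle genes lower. Over all genes, 1819 had an unadjusted p under 0.05. Of the 7 measured hub genes of the study's network, 1, Hadha, was called, and it was lower. Pklr has been described above. The glycerol kinase Gk differed by -0.62 (adjusted p = 0.322, 0.0924 with the covariate) and the phosphoglucomutase Pgm1 by 0.05 (0.795).

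**Figure D4:**
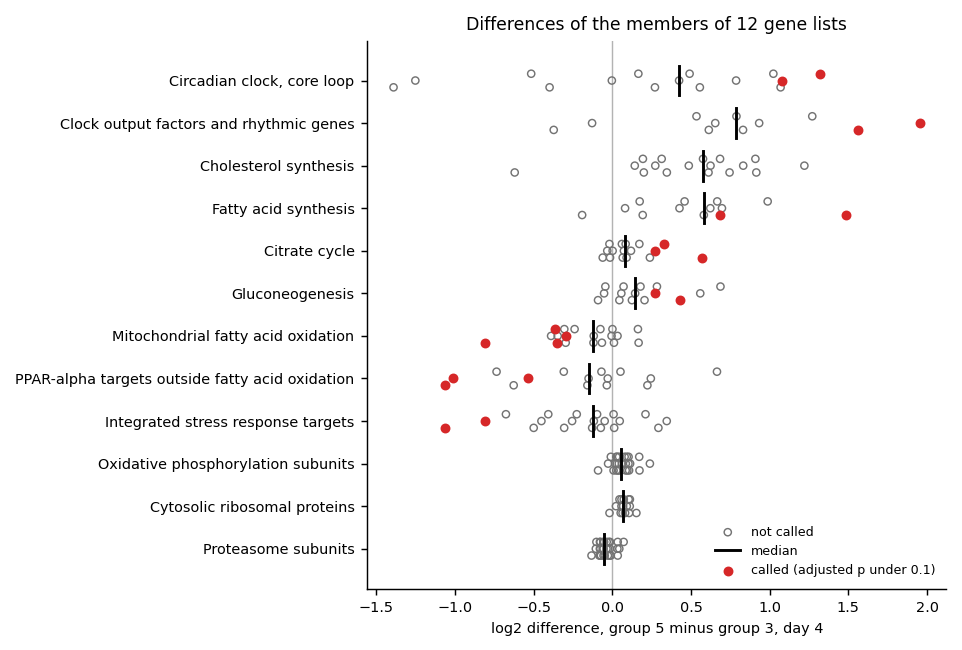
Log2 difference of group 5 minus group 3 at day 4 (horizontal axis) for the measured members of 12 gene lists (rows), with called genes as filled red points, others as open circles and the median of each list as a black bar. Called members lie above 0 in the clock, fatty acid synthesis, citrate cycle and gluconeogenesis lists and below 0 in the fatty acid oxidation, PPAR-alpha and stress response lists, and the complexes in the last 3 rows stay close to 0.

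The same 2 diets were compared at day 14 in other rats, 5 of each group, so that no array is shared between the days. Many more genes were called there: 535 higher (3.76%) and 823 lower (5.79%). Of the 75 genes called higher at day 4, 53 had the same sign at day 14, and 16 were called in the same direction, which is 21.3% of the 75 and 2.99% of the 535. Of the 43 called lower, 39 had the same sign and 15 were called again, 34.9% of the 43 and 1.82% of the 823. 2 genes called higher at day 4 were called lower at day 14, the fructose carrier Slc2a5 (0.48 and -0.76) and the potassium channel Kcnh1 (0.44 and -0.64). Among those called on both days were Cry1 (day 14 difference 0.89, adjusted p = 0.00565), Lpin2 (0.67, 0.0853), Bcl2l11 (1.37, 0.0174), Mthfd1 (0.86, 0.001), Ldha (-0.94, 0.0082), Abhd1 (-0.71, 0.0174) and Atf5 (-0.87, 0.00319).

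The difference between the days was tested itself, as the day 4 minus the day 14 value of group 5 minus group 3. It was called in 199 genes (1.4%), 151 (1.06%) with a higher value at day 4 and 48 (0.338%) with a lower one. Of the genes called higher at day 4, 15 were among them, and of those called lower, 3. Thrsp was 1.49 at day 4 and -0.19 at day 14 (difference between the days 1.67, adjusted p = 0.0486). Per2 was 1.32 and 0.00053 (1.32, 0.0837), while for Usp2, with 1.96 and 0.20, the difference of 1.75 was not called (adjusted p = 0.108). Lipogenic genes that were not called at day 4 were among them too: Srebf1 was 0.70 at day 4 and -1.01 at day 14 (1.71, 0.0529), Pklr 0.67 and -0.43 (1.10, 0.0951), and Fads1 0.81 and -0.42 (1.23, 0.0797). Cyp4a1 was -1.01 at day 4 and -0.02 at day 14 (-0.99, 0.0748).

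The 10 largest of these differences between the days, 5 in each direction, were of genes not called at day 4. The organic anion carrier Slc22a8 was -0.72 at day 4 and -3.29 at day 14 (2.57, adjusted p = 0.0748), the sulfate carrier Slc13a4 0.05 and -2.11 (2.16, 0.0432), and Nrep -0.33 and -2.13 (1.80, 0.0776). The potassium channel Kcnj15 was 1.56 and -1.18 (2.74, 0.099) and Nr0b2 1.51 and -0.72 (2.22, 0.0748). In the opposite direction, the insulin receptor substrate Irs2 was -0.05 at day 4 and 1.45 at day 14 (-1.50, adjusted p = 0.0304), Tmem30b -0.52 and 1.34 (-1.85, 0.0619), the kinase Dapk1 -0.41 and 0.84 (-1.25, 0.0775), Wsb1 -0.58 and 0.61 (-1.20, 0.0304), and Nipal1 -0.21 and 0.96 (-1.18, 0.087). Apart from Kcnj15 and Nr0b2 none of these 10 genes reached a log2 difference of 1 at day 4. With the position covariate Nr0b2 and Wsb1 were called there (adjusted p = 0.061 and 0.0761).

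**Figure D5:**
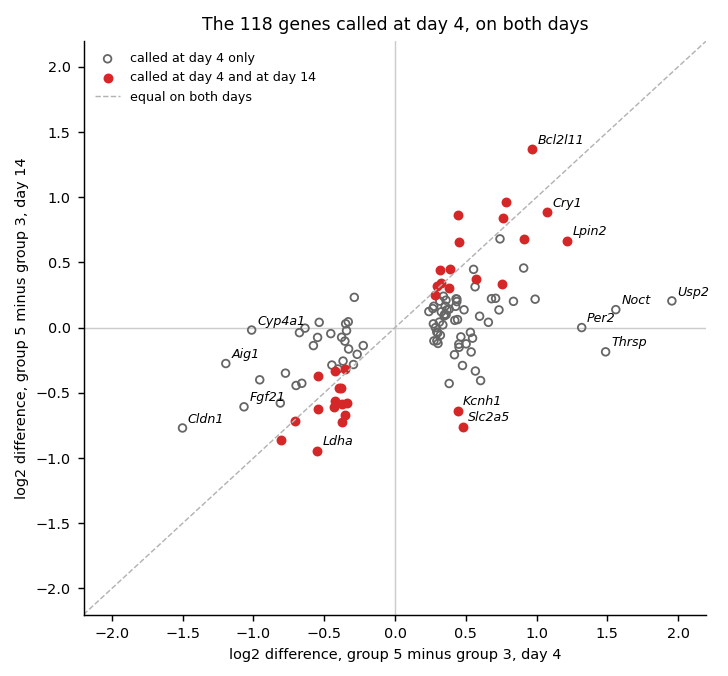
Log2 difference of group 5 minus group 3 at day 4 (horizontal axis) and at day 14 (vertical axis) for the 118 genes called at day 4, filled where also called at day 14, with a dashed line where both days are equal. The largest rises of day 4 (Usp2, Noct, Per2 and Thrsp) lie near 0 at day 14, and Slc2a5 and Kcnh1 are below 0 at day 14. Cry1, Lpin2 and Bcl2l11 are above 0 on both days, with Cry1 the nearest of them to the line.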

How the data were processed

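Livers of 49 rats were each hybridised to 1 Affymetrix rat expression array, and the 10 arrays of groups 3 and 5 at day 4 are compared here. Per the submitters' processing notes, the authors used Affymetrix Expression Console for the arrays and derived the values by RMA in R 3.0.1 (affy 1.38.1), which corrects background, normalizes quantiles and gives 1 value per probe set. The deposited intensities were linear whole numbers for 31042 probe sets, which were turned into log2 values here. RMA draws the arrays toward a common distribution, so a shift of all genes cannot be seen. Of the probe sets, 20826 had 1 gene symbol. Those with several (436) or none (9780) were left out. The brightest probe set on average over the 49 arrays stood for each gene, which gave 14217 genes. Levels of different genes are not comparable on this scale.

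The groups were compared with limma 3.58.1 (lmFit and eBayes, R 4.3.3), fitted to the 10 arrays alone, over all genes, with Benjamini-Hochberg adjustment, 2-sided, and a call at an adjusted p under 0.1. Day 14 was fitted in the same way, and the difference between the days in 1 fit of 20 arrays. The number of arrays limits the precision, 5 per group. Groups came from the treatment and time point labels. Replicates were numbered in accession order, which pairs nothing. No array was a copy of another, and the mean correlation of a rat with the others of its group was 0.992 to 0.994. Scripts were tested on simulated data first.

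Named genes are the 15 largest rises and 15 largest falls among called genes without overlap, up to 4 members of each list described, all clock genes, the hub genes, and the 5 largest differences between the days in each direction. Others (Cldn1, Bcl2l11, Cndp2, Nherf1, Tst, Slc2a5 and Kcnh1 among them) were added after their values were seen. The comparison, its gene lists and the tests were chosen with earlier results of these data known. Alternatives were the call threshold, the lognormal-normal model of the study's methods (LNN-MV), coded here with a variance per gene taken from limma, other fits and normalizations, the choice of probe set, each rat left out, and the position as a covariate or a block. Promoters were read from a RefSeq table (GRCr8), with motifs searched in 250 bases before the start on both strands. Figures were drawn with matplotlib 3.10.9.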

Additional observations from a re-analysis of the deposited data

Results flagged for a closer look

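In 13 of 244 groups of 5 rats (122 genes, groups 3 and 5 at day 4), 1 rat stood apart from the other 4 by more than the Dixon criterion of 0.71 allows, and chance alone gives about 1 in 20. In group 5, the rat that stood apart was high for Acly (11.53) and Per1 (9.541) and low for Hadhb (11.7) and Lpin1 (8.781). In group 3 it was high for Crot (12.82) and Pklr (10.18), and low for Aig1 (8.752), Kcnj15 (5.248), Me1 (7.877), Retsat (11.87), Slc13a4 (8.889), Tst (12.08) and Wsb1 (9.741). All are log2 intensities.

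The difference between groups 5 and 3 differed between day 4 and day 14 in 199 genes by the test of that difference. Among the genes named here, the day 4 minus day 14 value was above 0 for Cndp2 (0.57), Cyp2c22 (0.58), Fads1 (1.23), Hlf (0.97), Kcnh1 (1.08), Kcnj15 (2.74), Nherf1 (0.72), Nr0b2 (2.22), Nrep (1.80), Pdlim1 (0.77), Per2 (1.32), Pgm1 (0.35), Pklr (1.10), Slc13a4 (2.16), Slc22a8 (2.57), Slc2a5 (1.24), Srebf1 (1.71), Stat2 (0.63), Thrsp (1.67) and Tst (0.38). It was below 0 for Cyp4a1 (-0.99), Dapk1 (-1.25), Irs2 (-1.50), Nipal1 (-1.18), Plekhm3 (-0.38), Tmem30b (-1.85), Wsb1 (-1.20) and Zfp697 (-0.63).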

How the results depend on the processing

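The count of calls at day 4, 75 higher and 43 lower, was the least stable result. It was 13 and 11 at an adjusted p of 0.05, 21 and 13 with a fold of at least 1.5, 6 and 4 with a fold of at least 2, 121 and 70 with LNN-MV, 223 and 104 in 1 fit of all 10 group and day means, 39 and 20 with all probe sets of each gene averaged, 51 and 22 over all probe sets, 219 and 147 with the position covariate, and 94 and 89 with the position as a block of 2 rats, the last 2 chosen after the data were seen. Of the 75 and 43, 74 and 41 were also called by LNN-MV and 52 and 30 in the fit of all means. With each rat left out in turn the counts ran from 9 to 137 and from 7 to 67. They moved by more than 1.5 times without any 1 of group 5 replicates 1, 2, 4 and 5 and group 3 replicates 1, 2, 4 and 5. Median centring gave 94 higher and 30 lower and a repeated quantile normalization 51 and 42. At day 14 the counts of 535 and 823 became 280 and 438 at an adjusted p of 0.05 and 892 and 1336 in the fit of all means, and ran from 293 to 848 and from 434 to 875 with a rat left out. The 151 and 48 calls between the days became 48 and 9 at 0.05, 415 and 130 in the fit of all means and 115 and 74 with the repeated normalization, and ran from 60 to 244 and from 13 to 109 with a rat left out. The cause of these shifts was not tested, apart from the thresholds and folds, which admit fewer genes by construction.

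No called gene named here changed direction in any alternative. The 57 of them kept their call in 481 of 570 values under other settings and in 278 of 570 with a rat left out. Of 65 named genes that were not called, 75 of 649 values under other settings and 22 of 650 with a rat left out passed the threshold. Genes close to 0 changed sign: Csnk1e was 0.0071 with averaged probe sets, 0.021 with the repeated normalization and 0.014 with median centring, and with a rat left out it ran from -0.056 to 0.052, Cpt1a from -0.053 to 0.063, Irs2 from -0.17 to 0.062 and Slc13a4 from -0.19 to 0.25. Of the called genes, 47 had other probe sets, of which 60 of 69 had the same direction and 9 the opposite one, each close to 0 and dimmer than the one used (Eci1 0.14, Bcl2l11 -0.042, Enc1 -0.023 and Slc16a1 0.0017 among the genes named). The labels give no replicate number shared between the groups, so that a block could be built only on the position in the order of animal numbers, and that block kept 49 of the 75 and 30 of the 43 calls.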
